A study of Mus musculus with 2 samples.

Results

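The genes of cholesterol and fatty acid synthesis were read in single-cell RNA-seq of cultured primary mouse brain pericytes (PCs). They are 34 of the 31053 genes listed, chosen by symbol as genes of these pathways. Of them, 18 enzymes make up the sterol arm, from *Acat2* to *Dhcr7*, and 10 make up the fatty acid arm, from *Acly* to *Fads2*. The other 6 are the regulators *Srebf1*, *Srebf2*, *Scap*, *Insig1* and *Insig2* and the sterol carrier *Stard4*.

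One library was made from a culture at passage 5 (PC5) and 1 from a culture at passage 20 (PC20). The study set them mainly beside adult and embryonic brain PCs, and also asked how PCs change over long culture. Both cultures were primary cells from the pooled brains of 6 female wild type C57BL/6N mice, 6 to 8 weeks old, grown first in endothelial medium and later in Pericyte Medium. By the methods of the study the cultures were separate isolations, so passage and isolation cannot be told apart, although the deposited description speaks of a single isolation. With 1 library a passage no test between passages could be made, and cells of a library are not replicates of a passage. A cell was kept if over 1000 genes were seen in it and mitochondrial genes gave under 20% of its UMIs (unique molecular identifiers, each tagging a captured RNA molecule). They were 9950 PC5 cells with 223054273 UMIs, a median of 21700 a cell, and 4749 PC20 cells with 191122251 UMIs, a median of 33424 a cell. The libraries shared 20 cell barcodes.

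Cholesterol is built from acetyl-CoA by way of mevalonate, farnesyl diphosphate, squalene and lanosterol. Fatty acids are built from the same acetyl-CoA, then elongated and desaturated. Both routes are switched on by the transcription factors SREBP1 and SREBP2, encoded by *Srebf1* and *Srebf2*. When sterol in the endoplasmic reticulum membrane is low, the escort protein SCAP carries SREBP to the Golgi to be cut and released. When sterol is plentiful, the INSIG proteins hold SCAP back, and *Insig1* is itself an SREBP target.

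Promoters are shown for 5 genes on which the results turn, to let the sequences be read beside the levels. *Hmgcs1* was in the most correlated pair of each library, with *Insig1* in PC5 and *Idi1* in PC20, *Hsd17b7* had the largest difference between the libraries, and *Ebp* had the smallest of the sterol arm. Each line gives the 150 bases just before a RefSeq start, 5′ to 3′ on the strand of the gene, on build GRCm38.p6. For *Hsd17b7* that start lies inside the annotated gene, whose span reaches position 169969242, so the end of its line overlaps the gene. Capitals mark a sterol response element (TCACNCCAC, an SREBP site), an E-box (CACGTG) or a CCAAT box, which on the other strand reads ATTGG. The lines are, in order, chr13:119690201-119690350 (+), chr13:8885456-8885605 (+), chr5:28071262-28071411 (+), chr1:169969206-169969355 (-) and chrX:8193513-8193662 (-).
Hmgcs1: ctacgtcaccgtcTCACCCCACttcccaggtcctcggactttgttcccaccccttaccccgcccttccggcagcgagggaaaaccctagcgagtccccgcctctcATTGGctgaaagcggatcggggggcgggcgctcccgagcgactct
Idi1: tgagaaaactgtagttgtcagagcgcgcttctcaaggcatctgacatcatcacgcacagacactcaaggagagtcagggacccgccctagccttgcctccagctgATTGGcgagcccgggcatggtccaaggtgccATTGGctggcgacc
Insig1: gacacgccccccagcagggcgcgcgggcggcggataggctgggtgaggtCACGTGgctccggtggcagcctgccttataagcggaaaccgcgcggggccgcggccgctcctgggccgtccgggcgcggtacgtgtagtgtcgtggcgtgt
Hsd17b7: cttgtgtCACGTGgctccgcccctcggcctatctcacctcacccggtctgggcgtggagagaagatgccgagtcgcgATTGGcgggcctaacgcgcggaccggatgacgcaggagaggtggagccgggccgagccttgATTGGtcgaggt
Ebp: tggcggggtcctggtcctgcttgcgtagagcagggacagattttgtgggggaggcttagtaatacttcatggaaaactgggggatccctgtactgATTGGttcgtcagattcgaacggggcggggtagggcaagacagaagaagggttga

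RefSeq start regions, each from 250 bases before to 50 bases after a start, were found for 27 of the 34 members, with 35 regions in all. *Fdps*, *Fdft1*, *Sqle*, *Stard4*, *Scd1*, *Scd2* and *Fads1* were not matched. Each motif was searched on both strands and set beside its share of all 32851 regions of that length. The CCAAT box lay in a region of 22 of the 27 members, including 14 of the 15 sterol arm genes matched and 4 of the 7 fatty acid arm genes. It lay in 37.4% of all regions, and in 65.7% of the 35 member regions. The GC box GGGCGG also lay in 22 of the 27 members, and in 74.3% of the member regions against 35.7% of all regions. The full sterol response element was found in *Hmgcs1* alone, starting 137 bases before its start, and in 1.24% of all regions. Its shorter core CACNCCAC, contained in the full element, was found in *Acat2*, *Hmgcs1* and *Insig1*, and in 8.57% of the member regions against 6.24% of all regions. The E-box lay in *Dhcr7*, *Elovl5*, *Hsd17b7*, *Insig1*, *Sc5d* and *Scap*, and in 20.0% of the member regions against 7.15% of all regions. These matches describe letters only, and a gene with several starts had several chances to hold a motif. Only exact matches were counted, so a region without a match is not shown to lack an SREBP site.

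All 34 members were seen in 10% or more of the kept cells in PC5, PC20 or both, the condition for calling a gene expressed here. Expression is given as CPM, the UMIs of a gene summed over kept cells per 1000000 UMIs of its library. Each UMI is a molecule read at its 3′ end, so no scaling by length was made and levels of different genes were not ranked. The log2 ratio is PC5 over PC20, positive where PC5 was higher. Of the members, 28 were higher in PC5 and 6 in PC20, and 19 were at least 2-fold higher in PC5 while 0 were at least 2-fold higher in PC20. Among all 10504 expressed genes, 17.9% were at least 2-fold higher in PC5 and 19.1% in PC20. Over the members the median log2 ratio was 1.25, and -0.034 over all expressed genes.

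The 95% intervals, exact Poisson for CPM and conditional binomial for ratios, cover counting error only. They were narrow at this depth, and the widest of a member's log2 ratio, that of *Tm7sf2*, ran from 2.11 to 2.32. The interval of *Insig2* alone held 0.

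**Figure D1:**
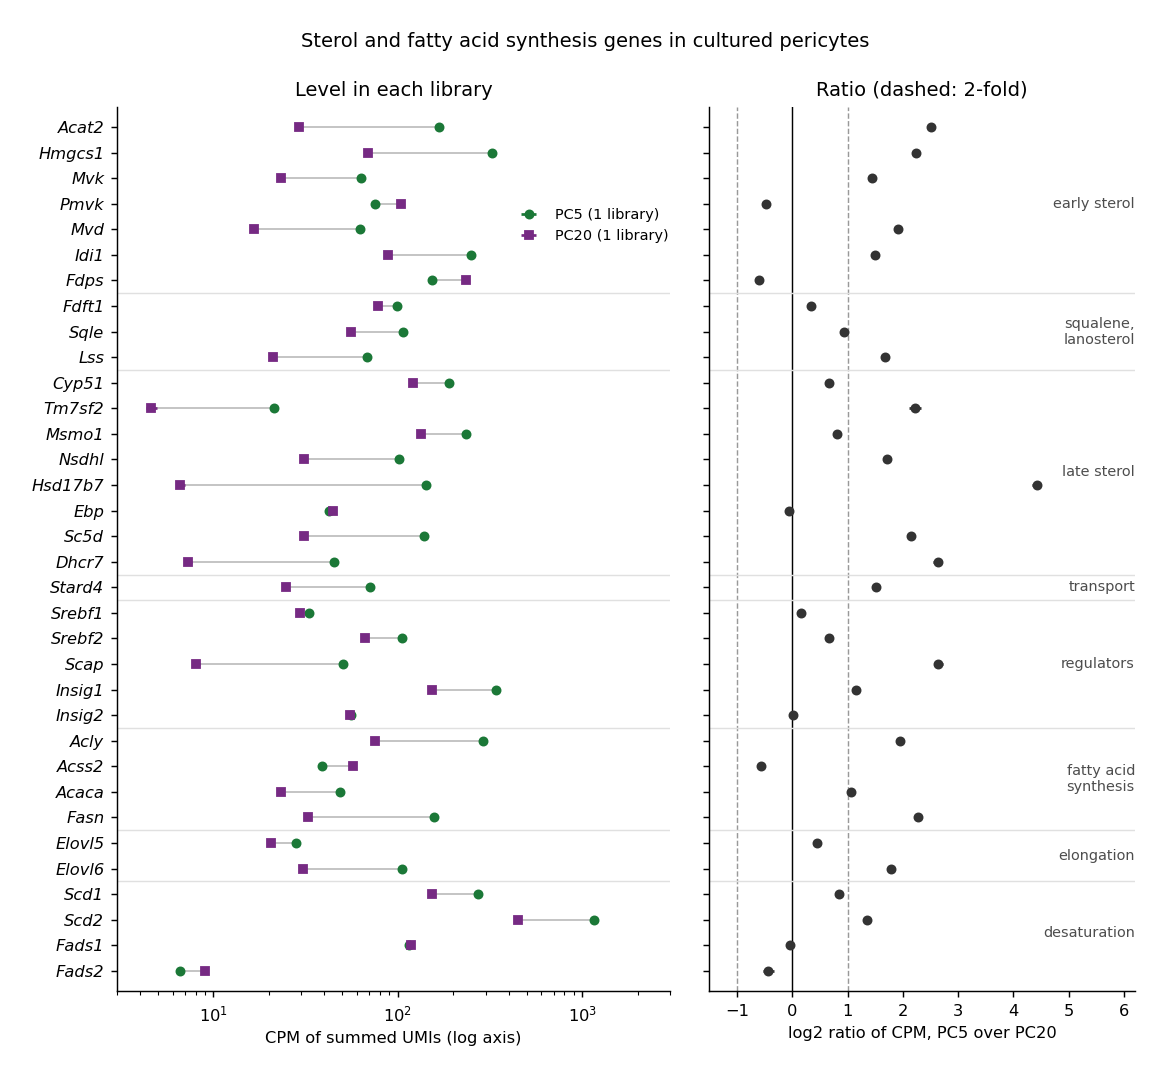
The left panel plots the CPM of each of the 34 genes in the PC5 library (circles) and the PC20 library (squares) on a log axis, and the right panel plots the log2 ratio of PC5 over PC20 with dashed lines at 2-fold. Bars, mostly hidden by the points, are 95% counting intervals, and ratios run from -0.60 for *Fdps* to 4.42 for *Hsd17b7*.

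**Figure D2:**
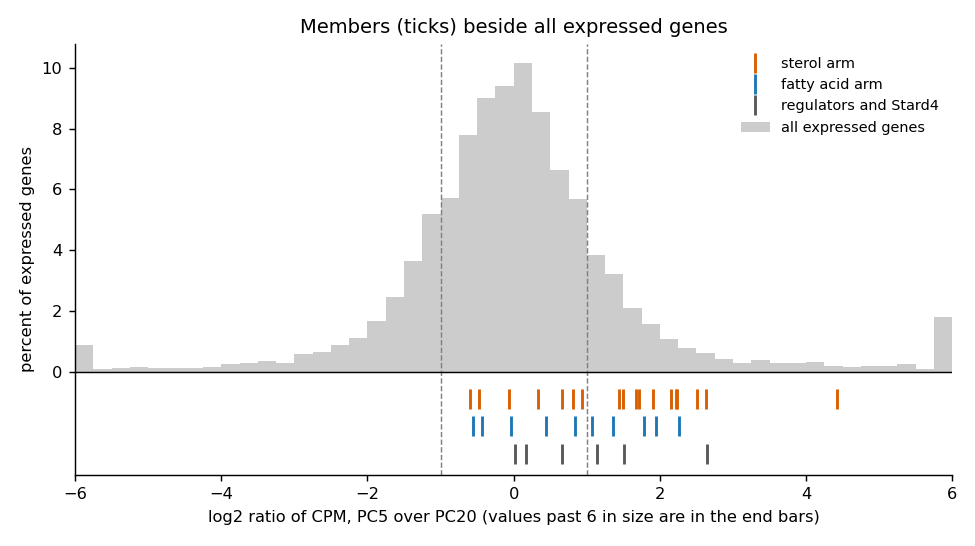
Grey bars give the percent of the 10504 expressed genes in each bin of log2 ratio (PC5 over PC20), and coloured ticks give each member by arm. The expressed genes centre near 0 with a median of -0.034, while 19 member ticks lie to the right of the upper dashed line at 2-fold and 0 lie to the left of the lower one.

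Of the 7 genes that lead from acetyl-CoA to farnesyl diphosphate, 5 were over 2-fold higher in PC5 and 2 were higher in PC20. *Hmgcs1*, the HMG-CoA synthase, stood at 324 CPM in PC5 and 68.6 in PC20 (log2 ratio 2.24, 95% interval 2.21 to 2.27). *Acat2*, the thiolase of the first condensation, stood at 167 CPM in PC5 and 29.2 in PC20 (log2 ratio 2.51). Its near-identical neighbour *Acat3* can take part of its reads, so this value is less certain. *Idi1*, which isomerises isopentenyl diphosphate, stood at 251 CPM in PC5 and 88.7 in PC20.

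Between these enzymes of the same short route the directions differed. *Mvk* and *Mvd*, the kinase and decarboxylase acting on mevalonate and its diphosphate, had log2 ratios of 1.44 and 1.90. *Pmvk*, the kinase that acts between them, stood at 75.1 CPM in PC5 and 104 in PC20 (log2 ratio -0.47, 95% interval -0.50 to -0.44). *Fdps*, which makes farnesyl diphosphate, stood at 154 CPM in PC5 and 233 in PC20 (log2 ratio -0.60, 95% interval -0.62 to -0.58). *Fdps* had the lowest ratio of all members. Over the 7 genes the summed level was 1096 CPM in PC5 and 564 in PC20.

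The 3 genes that form squalene and lanosterol were all higher in PC5, by growing amounts along the route. *Fdft1*, the squalene synthase, stood at 99.2 CPM in PC5 and 78.5 in PC20 (log2 ratio 0.34). *Sqle*, the squalene epoxidase and a rate-limiting step, stood at 107 CPM in PC5 and 55.8 in PC20 (log2 ratio 0.94). *Lss*, the lanosterol synthase, stood at 67.6 CPM in PC5 and 21.1 in PC20 (log2 ratio 1.68).

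The 8 genes from lanosterol to cholesterol held both the widest and one of the narrowest differences of the sterol arm. *Hsd17b7*, a 3-ketosteroid reductase of the demethylating complex, stood at 142 CPM in PC5 and 6.63 in PC20 (log2 ratio 4.42, 95% interval 4.34 to 4.51). Its UMIs were seen in 68.7% of cells at passage 5 and 6.08% at passage 20 after each cell was thinned to a common depth, which left 8847 and 4474 cells. No cell type known to lack the gene was present to give a background share. *Nsdhl*, which works in the same complex, stood at 101 CPM in PC5 and 30.9 in PC20 (log2 ratio 1.72).

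Elsewhere in this stretch, *Cyp51* and *Msmo1* differed less than 2-fold between the libraries and *Tm7sf2* differed more. *Cyp51*, the lanosterol demethylase, stood at 190 CPM in PC5 and 120.4 in PC20 (log2 ratio 0.66). *Msmo1*, the methylsterol oxidase, stood at 235 CPM in PC5 and 134 in PC20 (log2 ratio 0.81). *Tm7sf2*, a sterol reductase, stood at 21.4 CPM in PC5 and 4.61 in PC20 (log2 ratio 2.22).

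Of the final steps, *Sc5d*, the lathosterol oxidase, stood at 138 CPM in PC5 and 30.9 in PC20 (log2 ratio 2.16). *Dhcr7*, the 7-dehydrocholesterol reductase, stood at 44.9 CPM in PC5 and 7.26 in PC20 (log2 ratio 2.63). *Ebp*, the sterol isomerase that acts just before *Sc5d*, stood at 42.5 CPM in PC5 and 44.4 in PC20, with a log2 ratio of -0.06 (95% interval -0.10 to -0.02). Its ratio became 0.051 once cells with a *Mki67* or *Top2a* UMI were left out, so no direction is drawn for it. Over the 8 genes, 5 were at least 2-fold higher in PC5 and the median log2 ratio was 1.93.

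*Stard4*, which moves cholesterol between membranes, stood at 70.3 CPM in PC5 and 24.7 in PC20 (log2 ratio 1.51). Of the 5 regulators, *Insig1* and *Scap* were over 2-fold higher in PC5 and the other 3 differed less. *Insig1* stood at 339.6 CPM in PC5 and 153 in PC20 (log2 ratio 1.15). *Scap* stood at 50.3 CPM in PC5 and 8.05 in PC20 (log2 ratio 2.64, 95% interval 2.56 to 2.72).

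The transcription factor genes themselves were closer between the libraries than most of the enzyme genes. *Srebf2*, whose product favours sterol genes, stood at 106 CPM in PC5 and 66.7 in PC20 (log2 ratio 0.67). *Srebf1*, whose product favours fatty acid genes, stood at 32.9 CPM in PC5 and 29.3 in PC20 (log2 ratio 0.17). *Insig2*, the INSIG gene that is not an SREBP target, stood at 55.7 CPM in PC5 and 55.2 in PC20 (log2 ratio 0.01, 95% interval -0.03 to 0.05). The share of *Insig1* in the UMIs of both INSIG genes was therefore 85.9% in PC5 and 73.5% in PC20. *Srebf1* held 23.7% of the UMIs of both SREBP genes in PC5 and 30.5% in PC20.

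In the fatty acid arm, 3 of the 4 genes of acetyl-CoA and fatty acid synthesis were over 2-fold higher in PC5. *Acly*, which makes cytosolic acetyl-CoA from citrate, stood at 291 CPM in PC5 and 75.3 in PC20 (log2 ratio 1.95). *Fasn*, the fatty acid synthase, stood at 157 CPM in PC5 and 32.6 in PC20 (log2 ratio 2.27, 95% interval 2.23 to 2.31). *Acaca*, the acetyl-CoA carboxylase that commits carbon to fatty acids, stood at 48.8 CPM in PC5 and 23.3 in PC20 (log2 ratio 1.07).

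*Acss2*, which makes acetyl-CoA from acetate, went the other way, at 38.6 CPM in PC5 and 56.9 in PC20 (log2 ratio -0.56, 95% interval -0.60 to -0.52). The pair of genes that supply acetyl-CoA thus had a different balance in each library. *Acly* held 88.3% of their UMIs in PC5 (95% interval 88.1 to 88.5, Clopper-Pearson) and 57.0% in PC20 (95% interval 56.4 to 57.6).

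The elongases also differed in balance. *Elovl6*, which extends palmitate to stearate, stood at 106 CPM in PC5 and 30.7 in PC20 (log2 ratio 1.78). *Elovl5*, which extends polyunsaturated fatty acids, stood at 27.9 CPM in PC5 and 20.5 in PC20 (log2 ratio 0.44). *Elovl5* held 20.9% of the UMIs of the pair in PC5 and 40.0% in PC20.

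Among the desaturases, the stearoyl-CoA desaturases were higher in PC5 and the fatty acid desaturases were not. *Scd2*, the main brain form, stood at 1152 CPM in PC5 and 448 in PC20 (log2 ratio 1.36). *Scd1* stood at 274 CPM in PC5 and 153 in PC20 (log2 ratio 0.84), and held 19.2% of the UMIs of both in PC5 and 25.5% in PC20. These neighbours on chromosome 19 are close in sequence, so reads could be split between them. *Fads1*, the delta-5 desaturase of polyunsaturated fatty acids, stood at 115 CPM in PC5 and 118 in PC20 (log2 ratio -0.04), a ratio that turned positive in 2 other settings. *Fads2*, the delta-6 desaturase, was low in both libraries, at 6.62 CPM in PC5 and 8.96 in PC20.

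Set side by side, the summed sterol arm stood at 2285 CPM in PC5 and 1099 in PC20 (log2 ratio 1.06, 95% interval 1.05 to 1.06). The summed fatty acid arm stood at 2217 CPM in PC5 and 968 in PC20 (log2 ratio 1.20, 95% interval 1.19 to 1.20). By sums the fatty acid arm thus differed slightly more, while by the median gene the sterol arm did, with 1.59 against 0.95. The sums lean on a few genes: *Scd2* gave 257041 of the 494500 UMIs of the fatty acid arm in PC5 and 85716 of 184977 in PC20. Without *Hmgcs1* and *Idi1* the sterol arm had a log2 ratio of 0.86, and without *Scd1* and *Scd2* the fatty acid arm had 1.11. Of the sterol arm 11 of 18 genes were at least 2-fold higher in PC5, of the fatty acid arm 5 of 10, and of the remaining members 3 of 6, each beside the 17.9% of all expressed genes. Whether the arms differ in this was not tested.

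The difference was seen across the population of cells. After thinning, the sterol arm had a median of 23 UMIs a PC5 cell, with the 10th and 90th percentiles at 10 and 39. In PC20 cells the median was 10, with percentiles at 4 and 21. The fatty acid arm had a median of 22 UMIs a PC5 cell, with percentiles at 11 and 36, and of 9 a PC20 cell, with percentiles at 3 and 18. The median PC5 cell therefore lay above the 90th percentile of PC20 cells in each arm, and both distributions had a single main hump. Cells without any UMI of an arm were rare, with 14 PC5 and 21 PC20 cells for the sterol arm and 2 and 37 for the fatty acid arm.

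**Figure D3:**
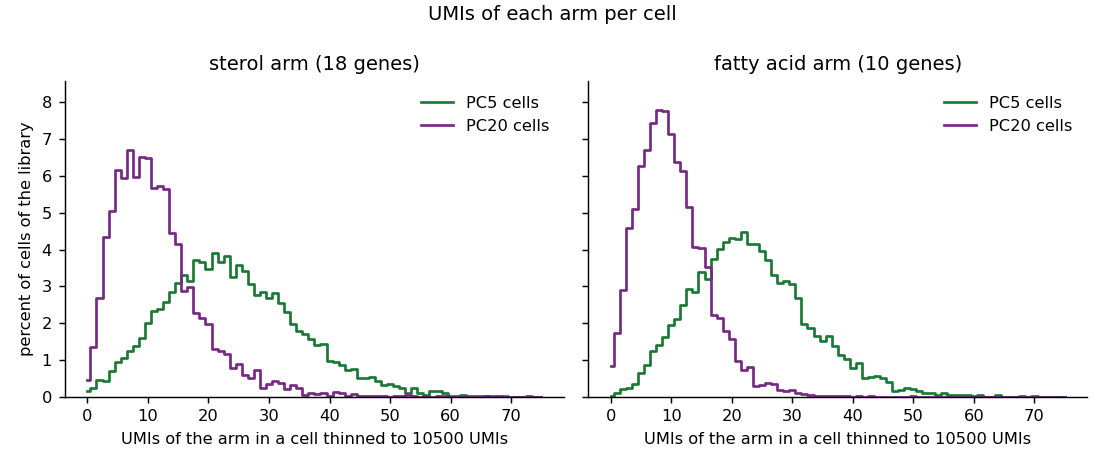
Each panel plots the percent of cells (y axis) against the UMIs of an arm in a cell (x axis) after every cell was thinned to a common depth, for 8847 PC5 and 4474 PC20 cells. The sterol arm has medians of 23 and 10 UMIs and the fatty acid arm medians of 22 and 9, and the curves of the libraries overlap.

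Within each library the members varied together from cell to cell. Pearson's *r* was computed over thinned cells on log(UMIs + 1), as a description, since cells of a library share its preparation and, after thinning, its depth. In PC5 all 153 pairs within the sterol arm had a positive *r*, with a mean of 0.130. In PC20 150 of the 153 did, with a mean of 0.107. Within the fatty acid arm 44 of 45 pairs were positive in PC5 (mean 0.108) and 42 of 45 in PC20 (mean 0.0668). Pairs of genes outside the members were not computed, so these counts and means, and those between the arms, have no background share.

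Pairs that joined a gene of each arm were about as correlated as pairs within the fatty acid arm. Their mean *r* was 0.112 in PC5, with 169 of 180 pairs positive, and 0.0782 in PC20, with 175 of 180 positive. Summed per cell, the arms correlated at *r* = 0.657 in PC5 and 0.543 in PC20. Leaving out cells with a *Mki67* or *Top2a* UMI, these were 0.667 and 0.583, so the relation was as large without those cells. The variance of the sterol sum over cells was 3.30 times the summed variances of its genes in PC5 and 3.09 times in PC20, where 1 would mean no covariance. For the fatty acid sum it was 1.84 times in PC5 and 1.59 times in PC20. This ratio depends on the number of genes summed, 18 and 10 here, and on how their variance is spread. The arms are therefore not compared by it, and it was not computed for other sets of genes.

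**Figure D4:**
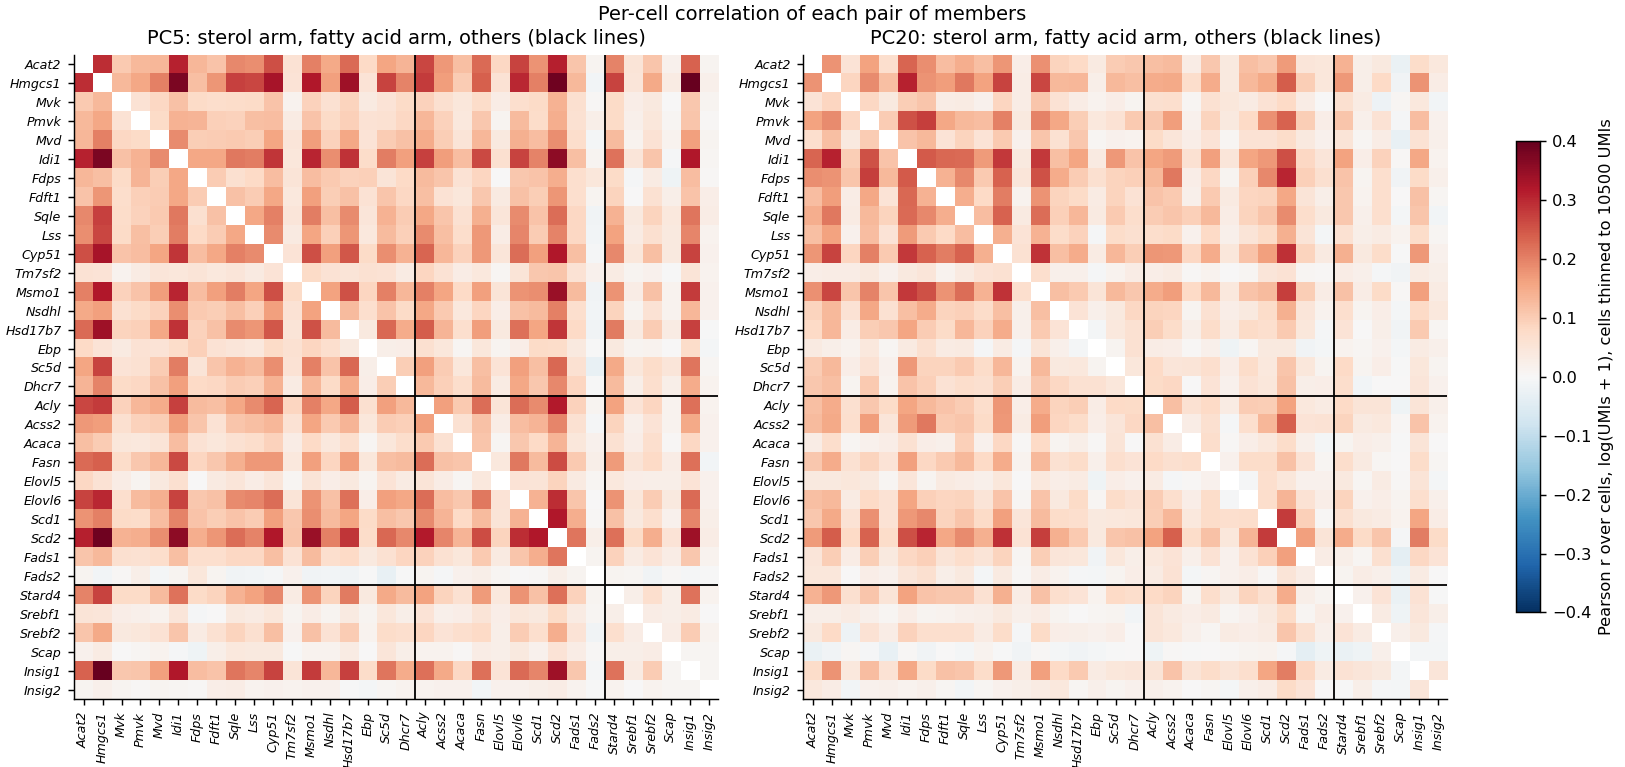
Each square gives Pearson's *r* over thinned cells for a pair of members, in PC5 (left, 8847 cells) and PC20 (right, 4474 cells), with black lines between the sterol arm, the fatty acid arm and the others. Red is positive and blue negative, the scale ends at 0.4 in size, and the rows of *Hmgcs1*, *Idi1*, *Cyp51*, *Msmo1* and *Scd2* are red in both libraries while those of *Fads2*, *Scap* and *Insig2* stay pale.

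The 5 highest pairs of PC5 all held *Hmgcs1*, *Idi1* or *Msmo1*. *Hmgcs1* and *Insig1*, whose promoters are shown above, led with *r* = 0.401. *Hmgcs1* with *Scd2* followed at 0.388, *Hmgcs1* with *Idi1* at 0.377, *Idi1* with *Scd2* at 0.359 and *Msmo1* with *Scd2* at 0.345. A desaturase of the fatty acid arm, *Scd2*, was thus in 3 of the 5 pairs, and it had the most UMIs a thinned cell of all members. The lowest pair of PC5 was *Sc5d* with *Fads2*, at -0.028.

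In PC20 the highest pair was *Hmgcs1* with *Idi1*, at *r* = 0.309. *Fdps* with *Scd2* followed at 0.304, *Cyp51* with *Scd2* at 0.292, *Cyp51* with *Msmo1* at 0.290 and *Idi1* with *Msmo1* at 0.284. *Fdps*, the member with the lowest ratio of PC5 over PC20, was in this list and not in that of PC5. The lowest pair of PC20 was *Scap* with *Fads1*, at -0.040. Genes with few UMIs a cell cannot reach a high *r*, and PC20 cells held fewer UMIs of most members.

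Each member was also set against the sum of the sterol arm, its own UMIs left out. *Scd2*, a gene of the fatty acid arm, had the highest value of all members in both libraries, at *r* = 0.552 in PC5 and 0.463 in PC20. *Hmgcs1* followed in PC5 at 0.537 and had 0.354 in PC20. *Idi1* had 0.501 and 0.432, *Msmo1* 0.441 and 0.424, and *Cyp51* 0.438 and 0.410. *Scd2* also had the most UMIs a thinned cell of all members in both libraries. It had a UMI in 99.5% of thinned PC5 cells and 91.6% of thinned PC20 cells. Its *r* was thus the least limited by low counts, and members were not matched on level, so its rank alone does not show a closer tie to the sterol arm.

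Some members stood differently in the libraries. *Fdps* had *r* = 0.229 in PC5 and 0.406 in PC20, and *Pmvk* had 0.223 in PC5 and 0.356 in PC20. These are the sterol arm genes with the lowest PC5 over PC20 ratios. *Insig1* went from 0.474 in PC5 to 0.221 in PC20 and *Hsd17b7* from 0.414 to 0.177. In PC20 *Hsd17b7* had a mean of only 0.067 UMIs a thinned cell. Each of these genes had its higher *r* in the library where it had more UMIs a thinned cell. The means in PC5 and PC20 were 1.58 and 2.53 for *Fdps*, 0.796 and 1.09 for *Pmvk*, and 3.58 and 1.64 for *Insig1*. More UMIs allow a higher *r*, and the part of counts in these shifts was not tested.

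Most regulators barely moved with the enzymes. *Insig2* had *r* = 0.024 in PC5 and 0.038 in PC20, *Scap* 0.035 and -0.011, and *Srebf1* 0.065 and 0.047. The PC20 value of *Scap* rests on a mean of only 0.081 UMIs a thinned cell. *Srebf2* had 0.186 in PC5 and 0.120 in PC20. *Insig1* and *Stard4* moved with the arm, *Stard4* at 0.320 and 0.212.

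Against genes outside the members, the values of the arm genes stood high, while that of *Insig2* in PC5 lay below the outside median of 0.026. Of 7401 such genes with a UMI in at least 10% of thinned PC5 cells, 6.24% had an *r* of at least 0.1 with the sterol sum, while 18 of 18 sterol arm genes did. In PC20 it was 8.35% of 7266 genes and 14 of the 15 sterol arm genes that reached the same detection. With the fatty acid sum, 5.20% of the outside genes reached 0.1 in PC5 and 8.12% in PC20, beside 8 of 9 and 7 of 9 fatty acid arm genes. The outside genes were not matched to the members on level. *Scap* had a UMI in only 7.78% of thinned PC20 cells, so it is not set beside the outside genes there. Among the 50 genes with the highest *r* with the sterol sum, 21 were members in PC5 and 12 in PC20. Only 33 members in PC5 and 29 in PC20 reached the detection needed to be ranked. Most members also had fewer UMIs a cell in PC20, so the counts of the libraries are not compared.

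**Figure D5:**
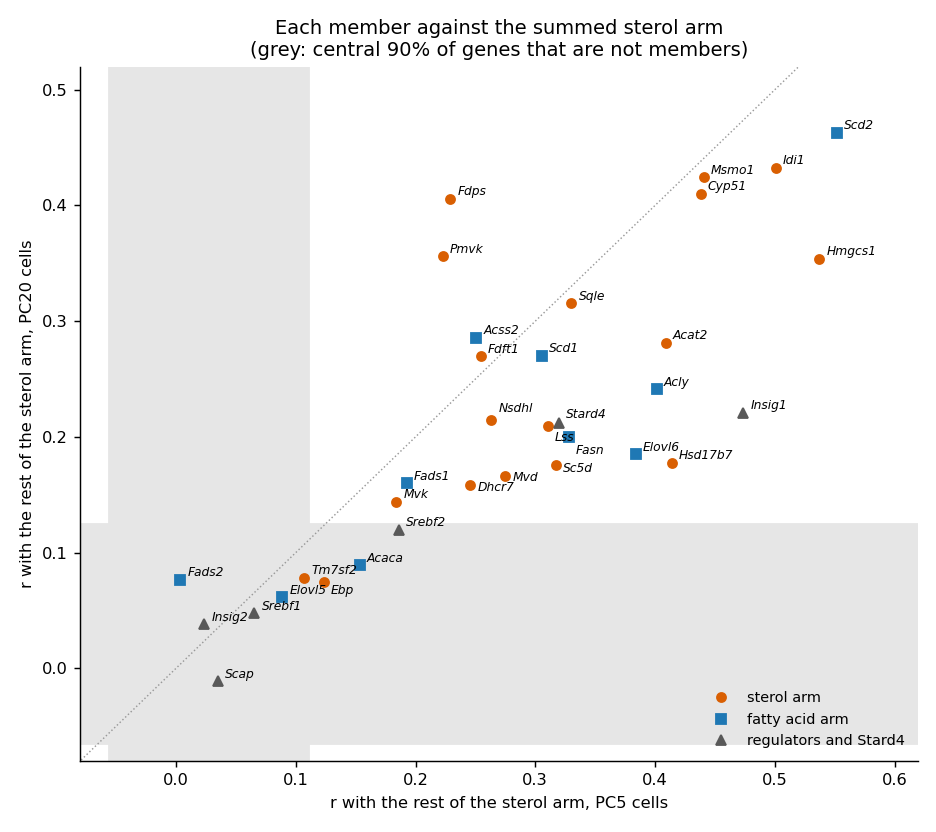
Each point is a member, with its Pearson *r* over cells against the rest of the sterol arm in PC5 (x axis) and PC20 (y axis). Grey bands hold the central 90% of genes outside the members, the dotted line marks equal values, and *Fdps* and *Pmvk* lie farthest above that line while *Insig1* and *Hsd17b7* lie far below it.

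The sterol sum also moved with other features of a cell. Its *r* with the UMIs of ribosomal protein genes was -0.326 in PC5 and -0.451 in PC20, and with the percent of mitochondrial UMIs 0.184 and 0.306. After a linear fit of each gene on both, the mean pairwise *r* of the sterol arm was 0.114 in PC5 and 0.0869 in PC20. The fatty acid arm then had 0.0971 in PC5 and 0.0450 in PC20, and pairs between the arms 0.0981 and 0.0566. The *r* between the arm sums was not computed after this fit. With the depth of the cell before thinning the sterol sum had *r* = 0.112 in PC5 and 0.038 in PC20.

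Groups of cells within each library were compared next, by counting error only. Cells with a UMI of the cycling markers *Mki67* or *Top2a* were 35.7% of thinned PC5 cells and 57.9% of PC20 cells. The sterol arm stood at 2313 CPM in such PC5 cells and 2259 in the others, a log2 ratio of 0.03. In PC20 the values were 1103 CPM in both, a log2 ratio of -0.00024. *Acat2* was higher in cycling cells of both libraries, at log2 ratios of 0.22 in PC5 and 0.57 in PC20. *Stard4* was as well, at 0.19 and 0.55. Others were lower in cycling PC20 cells, with *Tm7sf2* at -0.49, *Hsd17b7* at -0.42, *Mvd* at -0.27 and *Insig1* at -0.27. Of the 18 sterol arm genes in PC20, 4 had an interval above 0 and 5 below it, beside 26.1% and 19.6% of all expressed genes.

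Cells with a UMI of *Acta2*, the smooth muscle actin, were 27.8% of thinned PC5 cells and 18.1% of PC20 cells. In PC20 the sterol arm stood at 1291 CPM in these cells and 1061 in the others, a log2 ratio of 0.28 (95% interval 0.25 to 0.31). The intervals of 14 of the 18 sterol arm genes lay above 0, beside 10.5% of all expressed genes. The highest ratios were those of *Acat2* at 0.69 (95% interval 0.51 to 0.87) and *Hsd17b7* at 0.61 (95% interval 0.22 to 0.995). The value of *Hsd17b7* rests on a mean of only 0.067 UMIs a thinned PC20 cell, so its rank is not resolved. In PC5 the same ratio of the arm was 0.02, and 2 of the 18 intervals lay above 0, beside 15.0% of all expressed genes. The expressed genes were not matched to the members on level, and genes with more UMIs have narrower intervals. By *Cdkn1a*, the cell cycle inhibitor p21, the top 10% of cells differed from the rest by -0.04 in PC5 and -0.0072 in PC20 for the sterol arm. The fatty acid arm was lower in these cells, with -0.14 in PC5 and -0.11 in PC20.

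The arms parted in PC20 with a list of 7 hypoxia genes (*Car9*, *Vegfa*, *Bnip3*, *Ndrg1*, *Ankrd37*, *Egln3*, *Slc2a1*), whose sum was 437 CPM in PC5 and 1746 in PC20. Different genes made up most of that sum. In PC5 *Vegfa* and *Bnip3* stood at 175 CPM each, *Ndrg1* at 21.5 and *Car9* at 0.664. In PC20 *Bnip3* stood at 562 CPM, *Car9* at 414, *Ndrg1* at 284 and *Vegfa* at 205. The list therefore did not order cells by a like measure in the libraries. In PC5 the top 10% of cells by this list had the sterol arm at 2947 CPM against 2204 in the rest, a log2 ratio of 0.42 (95% interval 0.40 to 0.44). In PC20 the top 10% had it at 1004 CPM against 1114, a log2 ratio of -0.15 (95% interval -0.19 to -0.11). The fatty acid arm was higher in the top 10% of both libraries, by 0.28 in PC5 and 0.30 in PC20.

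The genes behind these sums differed. In PC5 the intervals of 16 of the 18 sterol arm genes lay above 0 and 0 below it, with *Hmgcs1* at 0.71 and *Hsd17b7* at 0.69. Of all expressed genes 39.5% lay above 0 and 10.1% below in that split, with a median log2 ratio of 0.15, beside 0.35 for the sterol arm genes. In PC20 0 sterol arm genes lay above 0 and 7 below, with *Acat2* at -0.83 and *Hmgcs1* at -0.61. Of all expressed genes 13.4% lay above and 24.1% below there, with a median of -0.10, beside -0.21 for the sterol arm genes. Of the PC20 fatty acid arm, *Scd2* stood at 639 CPM in the top 10% and 432 in the rest (log2 ratio 0.57), and *Scd1* at 198 and 151 (0.39). *Fasn* stood at 12.8 CPM in the top 10% and 32.1 in the rest (log2 ratio -1.33, 95% interval -1.72 to -0.95), and *Elovl6* at 17.9 and 31.2 (-0.80). *Acss2* and *Elovl5* were higher in the top 10%, both at 0.32, and *Acly* was lower at -0.27. The intervals of *Fads1* (-0.02), *Fads2* (-0.12) and *Acaca* (-0.30) held 0. The stearoyl-CoA desaturases and the fatty acid synthase were thus on opposite sides.

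Ordered by the list into 10 equal bins, PC5 cells had a sterol arm of 1818 CPM in the lowest bin and 2947 in the highest, with nearly every step upward. In PC20 it was 868 CPM in the lowest bin, 1216 in the fifth and 1004 in the highest. Over all PC20 cells the sterol sum accordingly still had a positive *r* of 0.152 with the list. Cells of the highest bin held 9 to 51 UMIs of the list in PC5 and 31 to 85 in PC20, so the bins of the libraries lay at unlike levels. *Scd2* went from 269.6 CPM in the lowest PC20 bin to 639 in the highest, and *Fasn* from 33.4 to 12.8, with 38.1 in the second. Depth and the shares of other RNAs moved with the bins. The highest bin had the lowest median depth before thinning in both libraries, 21016 UMIs in PC5 and 27577 in PC20. From the lowest to the highest PC5 bin, ribosomal protein genes went from 35.1% to 28.5% of UMIs and mitochondrial genes from 2.28% to 2.83%. In PC20 they went from 35.2% to 31.7% and from 1.68% to 1.75%, with mitochondrial genes highest at 2.18% in the seventh bin. Their part in these differences was not tested beyond the thinning.

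By a list of 7 amino acid stress genes (*Asns*, *Chac1*, *Trib3*, *Ddit3*, *Sesn2*, *Psat1*, *Atf5*), the top 10% of cells had the sterol arm at a log2 ratio of -0.08 in PC5 and -0.09 in PC20. The list summed to 237 CPM in PC5 and 1707 in PC20. *Psat1* stood at 111 CPM in PC5 and 228 in PC20, and *Ddit3* at 22.4 and 894. The top 10% were thus not like groups of cells in the libraries. The 10504 expressed genes, split the same way, centred on log2 ratios of 0.055 (PC5) and -0.076 (PC20) by their medians. The sterol arm genes had medians of -0.079 and -0.11. The ratio of the arm thus lay near that of expressed genes in PC20, and was opposite in sign to it in PC5. Over all PC20 cells the sterol sum had a positive *r* of 0.12 with the stress list, and over PC5 cells -0.0054. The fatty acid arm stood at -0.01 in PC5 and 0.09 in PC20. For *Fasn* in PC20 it was -0.93, and for *Scd2* 0.23, the same split as with the hypoxia list. In PC5 those genes had -0.02 and -0.04.

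Other lipid genes were more evenly divided in direction than the members. Of 34 listed, covering cholesterol export, storage and sensing, SREBP processing and the remaining fatty acid steps, 31 were expressed. Of these 19 were higher in PC5 and 12 in PC20, with a median log2 ratio of 0.37. At least 2-fold higher were 6 in PC5 (19.4%) and 4 in PC20 (12.9%), beside 17.9% and 19.1% of all expressed genes, so the PC5 share was near the background. The summed list stood at 2125 CPM in PC5 and 1850.4 in PC20.

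*Abca1*, the exporter of cholesterol, stood at 224 CPM in PC5 and 2.90 in PC20 (log2 ratio 6.27). *Cpt1a*, which lets fatty acids into mitochondria for oxidation, stood at 21.7 CPM in PC5 and 6.21 in PC20. *Acsl4*, an acyl-CoA synthetase, stood at 119 CPM in PC5 and 53.9 in PC20. *Oxsm*, of mitochondrial fatty acid synthesis, stood at 10.5 CPM in PC5 and 5.15 in PC20.

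Other genes that serve the fatty acid arm went the other way. *Me1*, the malic enzyme that supplies NADPH, stood at 54.3 CPM in PC5 and 129 in PC20 (log2 ratio -1.25). *Tecr*, the last reductase of the elongation cycle, stood at 82.2 CPM in PC5 and 221 in PC20 (log2 ratio -1.43). *Hacd2*, a dehydratase of that cycle, stood at 7.81 CPM in PC5 and 28.5 in PC20 (log2 ratio -1.87). *Elovl6* was higher in PC5, so the genes of the elongation cycle did not keep a common direction.

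Marker genes differed between the libraries alongside these values. The 5 pericyte markers summed to 53.9 CPM in PC5 and 8.53 in PC20, with *Pdgfrb* at 44.6 and 5.43 and *Rgs5* with 405 UMIs in PC5 and 0 in PC20. *Cspg4* was also higher in PC5, *Anpep* went the other way at 1.93 CPM in PC5 and 3.00 in PC20, and *Abcc9* had 1 UMI in each library. The 4 fibroblast markers summed to 1302 CPM in PC5 and 101 in PC20, mostly *Col3a1*. Of the others, *Pdgfra* stood at 88.6 CPM in PC5 and 0.131 in PC20, and *Dcn* at 51.3 and 0.167. The 3 smooth muscle markers summed to 283 and 49.5 CPM, with *Tagln* at 219 and 0.230 and *Acta2* at 62.8 and 49.2. The 3 endothelial markers summed to 169 and 0.178 CPM, nearly all *Cdh5*, while *Pecam1* and *Cldn5* had 121 and 14 UMIs in PC5. The 4 astrocyte markers summed to 151 and 229 CPM, nearly all *Slc4a4*, and the 4 oligodendrocyte markers to 4.63 and 5.31 CPM. The other 3 astrocyte markers were higher in PC5, with *Aldh1l1* at 7.35 CPM in PC5 and 0.026 in PC20, *Gfap* at 97 UMIs and 0, and *Aqp4* at 28 and 1. Of the 3 microglia markers, *Cd48* and *Adgre1* were at 0 in both libraries and *Csf1r* had 116 UMIs in PC5 and 3 in PC20. The part of the marker genes in the differences between the libraries was not tested. Within a library the sterol sum had an *r* of 0.027 with the pericyte markers in PC5 and -0.0065 in PC20.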

How the data were processed

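Single cells of cultured brain PCs were profiled with 10x 3′ chemistry, with 1 library at passage 5 and 1 at passage 20, grouped as labelled. The authors deposited counts of UMIs per gene and barcode, not normalized, made with Cell Ranger (5.0 in the submitters' processing notes, cellranger 5.0.1 in the file header) against mm10. Doublet removal is not given in the sources used here, and no doublet caller was run.

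Cells were filtered by the study's stated rule. UMIs were summed over kept cells and scaled to CPM, which weights deep cells more. A gene seen in 10% or more of the kept cells in PC5, PC20 or both was called expressed. Co-expression and cell groups used cells thinned to a common depth near the 10th percentile of UMIs. Too shallow for it were 1103 cells of PC5 and 275 of PC20. Intervals at the 95% level were exact Poisson, conditional binomial or Clopper-Pearson. A fold of 2 replaced a test, since each passage has 1 library.

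All 34 members are named. Other lipid genes are named where at least 10 CPM in either library and at least 2-fold apart, and member pairs by the 5 highest and the lowest *r*. Marker and cell group genes are named where a sentence needs them. The members and all lists were chosen with earlier results of these data known. The 10 bins of cells by the hypoxia list were tabulated after the top 10% had been seen.

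Start regions came from RefSeq on GRCm38.p6. The arm sums, the member ratios and the counts of members at least 2-fold apart were also computed with other filters on cells, without the cells that held a *Mki67* or *Top2a* UMI, with thinning, with other library sizes, as means over cells, and with other detection minimums, the mean *r* with other scales, depths and Spearman's rho, and the cell groups of the arms without thinning. Most other values were computed in 1 setting only. Python 3.11.15 with numpy 2.4.6, scipy 1.17.1, pandas 2.3.3 and matplotlib 3.10.9 was used, and the computation was tested on simulated data. Adult and embryonic cells were not analysed here.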

Additional observations from a re-analysis of the deposited data

Results flagged for a closer look

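The sterol arm differed in opposite directions between the libraries when cells were split by the hypoxia list. That list was made up mostly of different genes in each library, so the splits were not alike. In the top 10% of cells it had a log2 ratio to the rest of 0.419 in PC5 and -0.149 in PC20. The fatty acid arm did so, by far less, when cells were split by a *Mki67* or *Top2a* UMI, with a log2 ratio of 0.048 in cycling PC5 cells and -0.057 in cycling PC20 cells. Neither difference between the libraries was tested, since each is 1 library and the cells are not replicates.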

How the results depend on the processing

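No paired analysis was possible because each passage had 1 library. The sterol arm log2 ratio of 1.06 became 0.98 in cells with no *Mki67* or *Top2a* UMI, 1.05 after thinning, 1.08 with a library size free of mitochondrial and ribosomal protein genes, 1.03 as a mean over cells and 1.09 less the median gene. The fatty acid arm ratio of 1.20 became 1.11, 1.22, 1.16 and 1.23 in the same settings, thinning left aside. Chosen after seeing the data, leaving out *Hmgcs1* and *Idi1* gave 0.86 for the sterol arm and leaving out *Scd1* and *Scd2* gave 1.11 for the fatty acid arm. The counts of 19 and 0 members at least 2-fold apart became at lowest 18 and 0. Of 238 member values under 7 alternatives 235 kept their sign. *Ebp* turned to 0.051 and *Fads1* to 0.020 without *Mki67* or *Top2a* cells, and *Fads1* to 0.0026 after thinning. The top 25% of PC20 cells by UMIs had a sterol ratio of 0.062 thinned and -0.032 not thinned, and the cause was not tested.

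The mean *r* was higher at greater depth, where the cells used also differed. For the sterol arm, the fatty acid arm and pairs between them, mean *r* without thinning was 0.215, 0.183 and 0.189 in PC5 and 0.210, 0.155 and 0.164 in PC20. At 20000 UMIs it was 0.181, 0.148 and 0.156 in PC5 and 0.158, 0.113 and 0.123 in PC20. With only the members detected in both libraries, a choice made after seeing the data, the fatty acid arm of PC5 had 0.133. Fitting out ribosomal and mitochondrial UMIs was also added after seeing the data. Without thinning, the sterol ratios of cell groups were 0.048 by *Mki67* or *Top2a*, 0.039 by *Acta2*, 0.45 by the hypoxia list and -0.087 by *Cdkn1a* in PC5, and -0.069 by *Mki67* or *Top2a* and 0.19 by *Acta2* in PC20.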
